A study of Homo sapiens with 4 samples.

Results

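The 10 genes described here are the core of the Hippo pathway and its transcription factors: the upstream kinases STK3 and STK4, the downstream kinases LATS1 and LATS2, the coactivators YAP1 and WWTR1, and the DNA-binding partners TEAD1 to TEAD4. They were chosen by gene symbol, as the rows of the authors' deposited table that carry these names, and all 10 were found among its 59885 genes (30831 had reads, that is a base mean over 0). The samples were labelled PANC-1, a cell line from a human pancreatic ductal adenocarcinoma. CFL1 knockout cells made up 2 libraries and control cells 2 libraries. CFL1 is the gene of cofilin-1, which severs and depolymerizes actin filaments. How the knockout was made, whether it is 1 clone, and what the control cells carry are not given in the sources used here. No label says that libraries of a group came from separate cultures, and the spread behind each p-value is that between these libraries and may be technical.

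In the Hippo pathway, STK3 and STK4 (the MST kinases, mammalian counterparts of fly Hippo) phosphorylate and activate LATS1 and LATS2, and the LATS kinases phosphorylate YAP and TAZ, the products of YAP1 and WWTR1. Phosphorylated YAP and TAZ are held in the cytoplasm or degraded. Unphosphorylated YAP and TAZ enter the nucleus and bind TEAD factors at target genes such as CTGF, CYR61 and ANKRD1. Tension in the actin cytoskeleton promotes nuclear YAP and TAZ in cultured cells, and actin-severing proteins including cofilin are known to restrain them. That control acts largely on the proteins, so RNA levels of the pathway's genes do not measure its activity.

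Because TEADs recognize GGAATG, promoters of the 10 genes were searched for it on both strands (GGAATG or CATTCC), in windows from 250 bases before to 50 bases after each start in the RefSeq table of GRCh38.p14. The table held 10 windows for 7 of the genes, namely YAP1, WWTR1, TEAD2, TEAD3, LATS1, LATS2 and STK4, and 2 of these windows held the letters, those of YAP1 and LATS2. Of all 35116 windows in the table, 4928 (14.0%) held them. The match begins 162 bases before the start in YAP1 and 9 bases after it in LATS2. LATS2 is itself a known target of YAP and TAZ in a feedback loop. Both sequences are shown so that the match can be read in its surroundings, 5′ to 3′ on the gene's strand, with the matched letters in capitals. The YAP1 stretch is the 250 bases before the start at chr11:102110197-102110446 on the plus strand, and the LATS2 stretch is 30 bases at chr13:21061560-21061589 on the minus strand.
YAP1: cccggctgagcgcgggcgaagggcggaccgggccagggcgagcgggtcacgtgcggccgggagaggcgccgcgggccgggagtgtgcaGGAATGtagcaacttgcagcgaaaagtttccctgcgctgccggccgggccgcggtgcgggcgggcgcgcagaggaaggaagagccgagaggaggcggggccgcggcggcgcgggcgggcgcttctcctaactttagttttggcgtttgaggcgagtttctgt
LATS2: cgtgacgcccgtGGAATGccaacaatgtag
A match of 6 letters is a description of the promoter and not a binding site.

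The authors' deposited table gives 1 fold change per gene and no column for single libraries, so the whole reads of each library were recovered from its base means and divided by the authors' size factors. These normalized counts are the values given below, library A before library B in each group, and the letters A and B name libraries without mapping them to the sample numbers of the labels. Recovered reads summed to between 12372622 and 14662862 per library. Control B differed broadly from the other 3 libraries. Over the 17139 genes with base means of 10 or more, Pearson's r of log2 values was 0.71 between the controls, 0.98 between either knockout and control A, 0.70 between either knockout and control B, and 0.99 between the knockouts. These correlations are across genes, which are not independent replicates. Of the 7 ductal and carcinoma markers listed, the keratin genes KRT8 and KRT18 and the vimentin gene VIM were abundant over the pooled libraries. Their base means were 14817, 12890 and 20850 in the authors' deposited table, and their reads in single libraries were not recovered. EPCAM was low, with 7.08 and 16.2 normalized counts in the knockouts and 6.36 and 42.5 in the controls. KRT7 had 4000 and 3683 normalized counts in the knockouts and 3551 and 108 in the controls. KRT19, a defining ductal keratin, had no read in either knockout, against 1.82 in control A and 2481 in control B. Control B also held most of the reads of SOX9, with 156 and 183 in the knockouts and 63.6 and 3513 in the controls, and of CD68, with 8.85 and 10.8 in the knockouts and 1217 in control B. The summed markers of acinar, islet, fibroblast, and leukocyte or endothelial cells ranged from 0 to 1203 per list in the knockouts, and from 0 to 895 in control A and 107 to 1861 in control B. Of the fibroblast markers, PDGFRB had 439 and 451 in the knockouts and 513 and 6.71 in the controls. COL1A1, by contrast, was highest in control B, at 1574. The acinar gene PRSS3 was read in control B alone, at 346. The acinar genes PRSS1, CPA1, CELA3A, PNLIP and AMY2A, the islet hormone genes INS and GCG, LUM and LYZ were at 0 in all libraries. All 4 libraries are labelled PANC-1, and whether all 4 come from the same line was not tested. Whether control B or the other 3 libraries would depart from that label was not tested either. The part of these library differences in the results was not tested either, and a difference that rests on control B carries that limit. For the 10 genes, values are therefore given for each control separately.

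CFL1 itself was lower in both knockouts. It had 2285 and 2487 normalized counts in the knockouts, against 6276 and 13761 in the controls, and the groups did not overlap. The knockout mean of CFL1 differed by -1.40 from control A and by -2.53 from control B on the log2 scale. CFL1 fell by 2.07 on the log2 scale in the authors' deposited table, with a standard error (SE) of 0.454 and, by the DESeq2 Wald test, an adjusted p of 0.00168. With limma on the recovered reads its adjusted p was 0.722 with all 4 libraries and 0.309 without control B, fits that each called 0 of 24822 genes.

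None of the 10 Hippo genes passed the test. The authors' deposited table calls 0 of the 10 at a DESeq2 adjusted p under 0.05, a threshold that 93 of 16629 tested genes (0.559%) passed, and 1 of the 10, WWTR1, had an unadjusted p under 0.05. The table's own mark for downregulated genes, which equals an unadjusted p under 0.05, stands on 1 of the 10, WWTR1. It stands on 1578 of the 16629 tested genes (9.49%), and on 1743 of all 30831 genes with reads (5.65%). All 10 genes were tested, with base means from 179 for TEAD4 to 9894 for TEAD1, so that no filter on low values removed any. YAP1, WWTR1 and LATS1 had lower counts in both knockouts than in either control, as had 21.1% of 16458 tested genes with recovered reads. TEAD2 and LATS2 had higher counts in both knockouts, as had 23.9% of those genes. The other 5 overlapped between the groups. In these bulk samples, fewer cells of a type and less RNA per cell cannot be told apart.

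**Figure D1:**
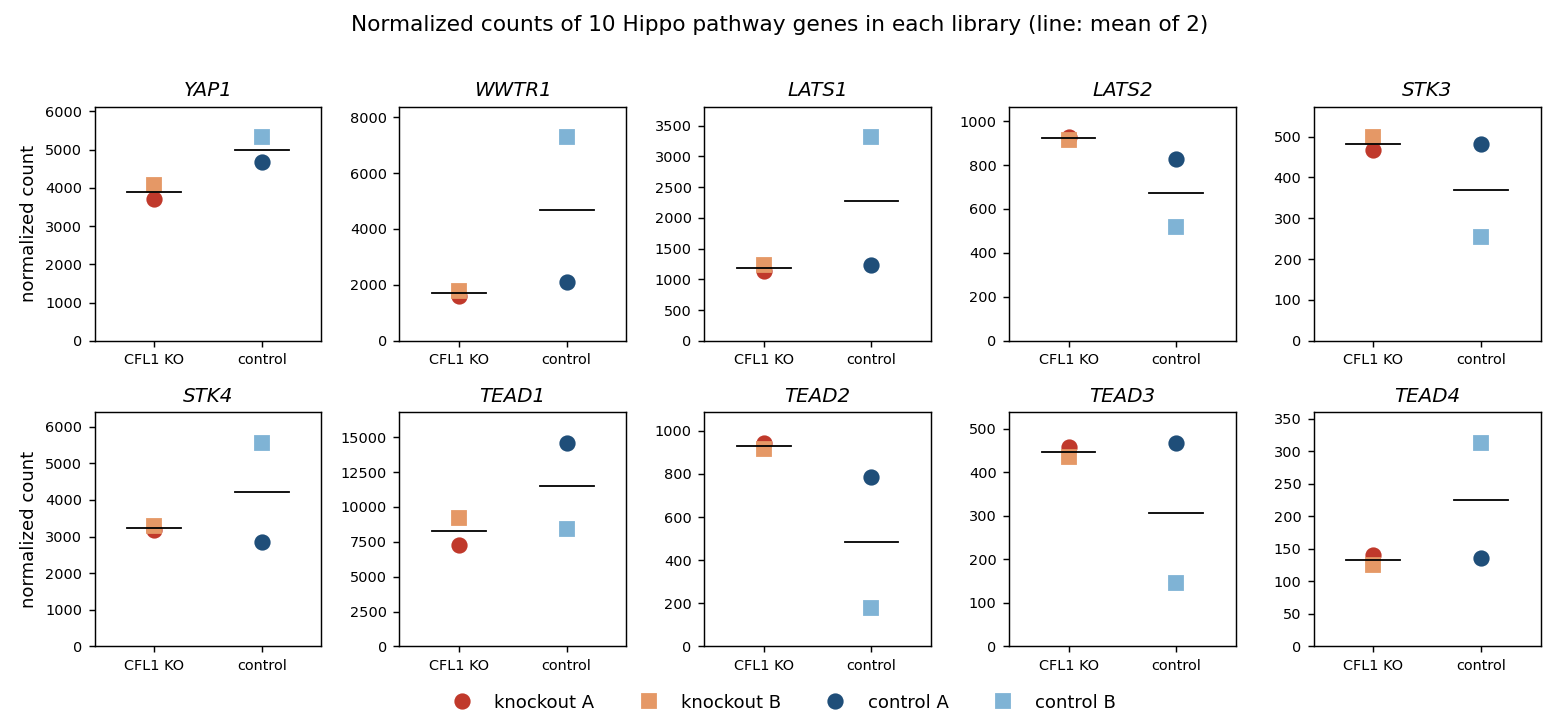
Normalized counts (vertical axes, each from 0) of the 10 Hippo genes, with CFL1 knockout libraries on the left and control libraries on the right, circles for libraries A, squares for libraries B and a line at each group's mean. The 2 knockout libraries lay close together for every gene, whereas the 2 controls lay far apart for most, YAP1 having the closest controls.

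YAP1 (ENSG00000137693.13_3_YAP1, chromosome 11), the coactivator that carries the pathway's output to TEADs, was lower in the knockouts than in either control, by less than 0.5 on the log2 scale. It had 3710 and 4072 normalized counts in the knockouts, against 4665 and 5322 in the controls. Both knockouts lay below both controls, and the controls differed by only 0.19 on the log2 scale, the smallest gap among the 10 genes. YAP1 averaged 3891 ± 256 in the knockouts and 4994 ± 465 in the controls (SD, n = 2 each), a ratio of 0.779. The knockout mean lay 0.26 below control A and 0.45 below control B on the log2 scale (-0.26 and -0.45). Of 16458 tested genes, 47.0% were at least as far from control A and 72.0% at least as far from control B. The authors' deposited table gives YAP1 a log2 fold change of -0.36 with a standard error of 0.194, an unadjusted p of 0.0630 and an adjusted p of 0.421 by the DESeq2 Wald test. The difference did not pass the test. By limma the log2 fold change of YAP1 was -0.36, and -0.22 when libraries were scaled to total reads, a scaling that moved the median of all genes by 0.13.

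WWTR1 (ENSG00000018408.14_3_WWTR1, chromosome 3), which encodes TAZ, the paralog of YAP, had the largest log2 fold change of the 10, and most of it came from 1 control library. WWTR1 had 1610 and 1790 normalized counts in the knockouts, against 2108 in control A and 7277 in control B. Both knockouts lay below both controls, but control B held 3.45 times the count of control A. The group means were 1700 ± 128 in the knockouts and 4692 ± 3656 in the controls (SD, n = 2 each). On the log2 scale the knockout mean differed by -0.31 from control A and by -2.10 from control B, while the knockouts differed from each other by 0.15. In the authors' deposited table the log2 fold change of WWTR1 was -1.46, with a standard error of 0.621, an unadjusted p of 0.0184 and a DESeq2 adjusted p of 0.290. Without control A, limma gave WWTR1 an adjusted p of 0.0260, in a fit that called 33.5% of all genes.

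The balance of the coactivators was similar in 3 libraries and different in control B. WWTR1 took 30.3% of the reads of YAP1 and WWTR1 in knockout A (exact 95% binomial interval 29.1% to 31.4%) and 30.5% in knockout B (29.3% to 31.8%), against 31.1% in control A (30.1% to 32.2%) and 57.8% in control B (56.8% to 58.7%). The intervals of the 3 similar libraries overlap, and that of control B lies apart from all of them. Such intervals cover counting error only, and a share within a family does not depend on the size factors. Together the coactivators summed to 5320 and 5862 normalized counts in the knockouts, against 6773 and 12600 in the controls.

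The genes most like YAP1 and WWTR1 over the 4 libraries were found by the smallest Euclidean distance of log2(normalized count + 1), centred on each gene's mean, among the 11465 genes whose base mean was 100 or more. For YAP1 they were CHM, PHKG2 and ATP7B, at distances of 0.01, 0.02 and 0.03. CHM had 780 and 865 normalized counts in the knockouts, against 992 and 1124 in the controls. For WWTR1 they were TRIP12, NBPF12 and MYL12B, at distances of 0.05, 0.05 and 0.06. TRIP12 had 4018 and 4317 normalized counts in the knockouts, against 5022 and 17632 in the controls. The WWTR1 pattern, in which control B stands apart, is shared by many genes. For YAP1 and WWTR1 alike, the distances are a description only.

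LATS1 and LATS2, the kinases that phosphorylate YAP and TAZ, lay on opposite sides of the controls. LATS1 (ENSG00000131023.12_2_LATS1, chromosome 6) had 1138 and 1228 normalized counts in the knockouts, against 1229 in control A and 3312 in control B. Knockout B and control A were all but equal for LATS1, and the high value was that of control B. Its knockout mean differed by -0.06 from control A and by -1.49 from control B on the log2 scale. LATS1 had a log2 fold change of -0.94 in the authors' deposited table, with an SE of 0.541 and, by the DESeq2 Wald test, an adjusted p of 0.457.

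LATS2 (ENSG00000150457.8_2_LATS2, chromosome 13) had 926 and 916 normalized counts in the knockouts, against 828 in control A and 520 in control B. Both knockouts were above both controls, by 0.15 over control A and 0.82 over control B on the log2 scale, and they differed from each other by 0.02. The authors' deposited table gives LATS2 a log2 fold change of 0.45, with an SE of 0.346 and, by the DESeq2 Wald test, an adjusted p of 0.584. LATS2 accounted for 44.9% and 42.7% of the reads of the pair in the knockouts, against 40.3% in control A and 13.6% in control B. The share in control A lay 3.53 percentage points under the knockout mean, and the exact 95% binomial interval of control A (38.2% to 42.3%) overlapped that of knockout B (40.5% to 44.9%). That of knockout A (42.8% to 46.9%) lay apart from it. Leaving out control B therefore changes the mean difference in this share to 3.53 percentage points, against 16.9 with all libraries.

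STK3 and STK4, at the top of the cascade, overlapped between the groups. STK3 (ENSG00000104375.15_3_STK3, chromosome 8) had 468 and 498 normalized counts in the knockouts, against 483 in control A and 254 in control B. Control A lay between the knockouts for STK3, at a difference of 0.00 on the log2 scale from their mean, which lay 0.92 above control B. STK4 (ENSG00000101109.11_2_STK4, chromosome 20) had 3172 and 3301 normalized counts in the knockouts, against 2851 in control A and 5558 in control B, so that the knockouts lay between the controls. The knockout mean of STK4 differed by 0.18 from control A and by -0.78 from control B on the log2 scale. In the authors' deposited table the log2 fold changes were 0.39 for STK3 and -0.38 for STK4, with standard errors of 0.442 and 0.407 and DESeq2 adjusted p of 0.700 and 0.689. STK3 took 12.8% and 13.1% of the reads of the pair in the knockouts, against 14.5% in control A and 4.37% in control B. As with the coactivators and the LATS kinases, 1 library had another balance of paralogs, and that library was control B.

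TEAD1 (ENSG00000187079.16_3_TEAD1, chromosome 11) was the most abundant of the TEAD genes in every library and the only one of the 10 genes whose knockouts lay nearer to control B than to control A. TEAD1 had 7303 and 9226 normalized counts in the knockouts, against 14592 in control A and 8453 in control B. The high library was control A, and control B lay between the knockouts. Its means were 8264 ± 1359 in the knockouts and 11523 ± 4341 in the controls (SD, n = 2 each). On the log2 scale the knockout mean of TEAD1 differed by -0.83 from control A and by -0.04 from control B, and 8.28% of 16458 tested genes were at least as far from control A. The authors' deposited table lists TEAD1 at -0.48 (log2 fold change), with an SE of 0.376 and, by the DESeq2 Wald test, an adjusted p of 0.589.

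TEAD2, TEAD3 and TEAD4 were less abundant. TEAD2 (ENSG00000074219.13_3_TEAD2, chromosome 19) had 944 and 918 normalized counts in the knockouts, against 788 in control A and 180 in control B. Both knockouts were above both controls, and the low library was control B. The authors' deposited table gives TEAD2 a log2 fold change of 0.94, with an SE of 0.726 and, by the DESeq2 Wald test, an adjusted p of 0.584. The knockout mean of TEAD2 was above control A by 0.24 and above control B by 2.36 on the log2 scale.

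TEAD3 (ENSG00000007866.19_3_TEAD3, chromosome 6) had 457 and 435 normalized counts in the knockouts, against 467 in control A and 145 in control B. TEAD4 (ENSG00000197905.8_3_TEAD4, chromosome 12) had 141 and 125 normalized counts in the knockouts, against 136 in control A and 313 in control B. For both genes the knockouts and control A were close together, with differences of -0.07 for TEAD3 and -0.04 for TEAD4 on the log2 scale, and control B alone stood off, low for TEAD3 and high for TEAD4, with differences of 1.61 and -1.23. In the authors' deposited table their log2 fold changes were 0.54 and -0.75, with standard errors of 0.647 and 0.577 and DESeq2 adjusted p of 0.714 and 0.582. For TEAD3 and STK4 the sign of the fold change with all 4 libraries is opposite to that against control A alone.

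The make-up of the TEAD family differed between knockouts and controls in the same direction against each control for 3 of its members. The counts behind these shares differed from each control in another way. On the log2 scale, the knockout mean of TEAD1 differed by -0.83 from control A and by -0.04 from control B. That of TEAD2 differed by 0.24 and 2.36, and that of TEAD3 by -0.07 and 1.61, so that the shift against control B carries the limit of that library. TEAD1 took 82.6% and 86.2% of the reads of the 4 genes in the knockouts, against 91.3% in control A and 93.0% in control B. Both knockouts were below both controls for the TEAD1 share, and no exact 95% binomial interval of a knockout overlapped that of a control. The intervals did not overlap within a group either. They were 81.8% to 83.3% and 85.5% to 86.9% in the knockouts, and 90.9% to 91.7% and 92.4% to 93.5% in the controls. They cover counting error only and do not measure the difference between groups. TEAD2 took 10.7% and 8.57% in the knockouts, against 4.93% in control A and 1.98% in control B. The TEAD3 share was 5.17% and 4.06% in the knockouts, against 2.92% in control A and 1.60% in control B. TEAD4 took 1.59% and 1.17% in the knockouts, against 0.853% in control A and 3.44% in control B, so that its share lay between those of the controls.

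In percentage points, the knockout means differed from the control means by -7.75 for TEAD1, 6.17 for TEAD2, 2.35 for TEAD3 and -0.77 for TEAD4. The controls differed from each other by 1.69, 2.95, 1.32 and 2.59 points, and the knockouts by 3.63, 2.10, 1.11 and 0.42 points, in the same order of genes. For TEAD1 to TEAD3 the difference between groups was thus larger than the spread within either group, and for TEAD4 it was smaller than that between the controls. Groups of 2 against 2 libraries cannot go below an exact two-sided permutation p of 0.333, so no test was made on the shares. The 4 shares sum to the whole of the family, and TEAD1 supplied most of it. A lower TEAD1 count by itself raises the other shares, and both knockouts had lower TEAD1 counts (7303 and 9226) than control A (14592). In control B the TEAD1 count (8453) lay between those of the knockouts, and the counts of TEAD2 (180) and TEAD3 (145) were low. The 4 genes summed to 8845 and 10703 normalized counts in the knockouts, against 15984 in control A and 9091 in control B.

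**Figure D2:**
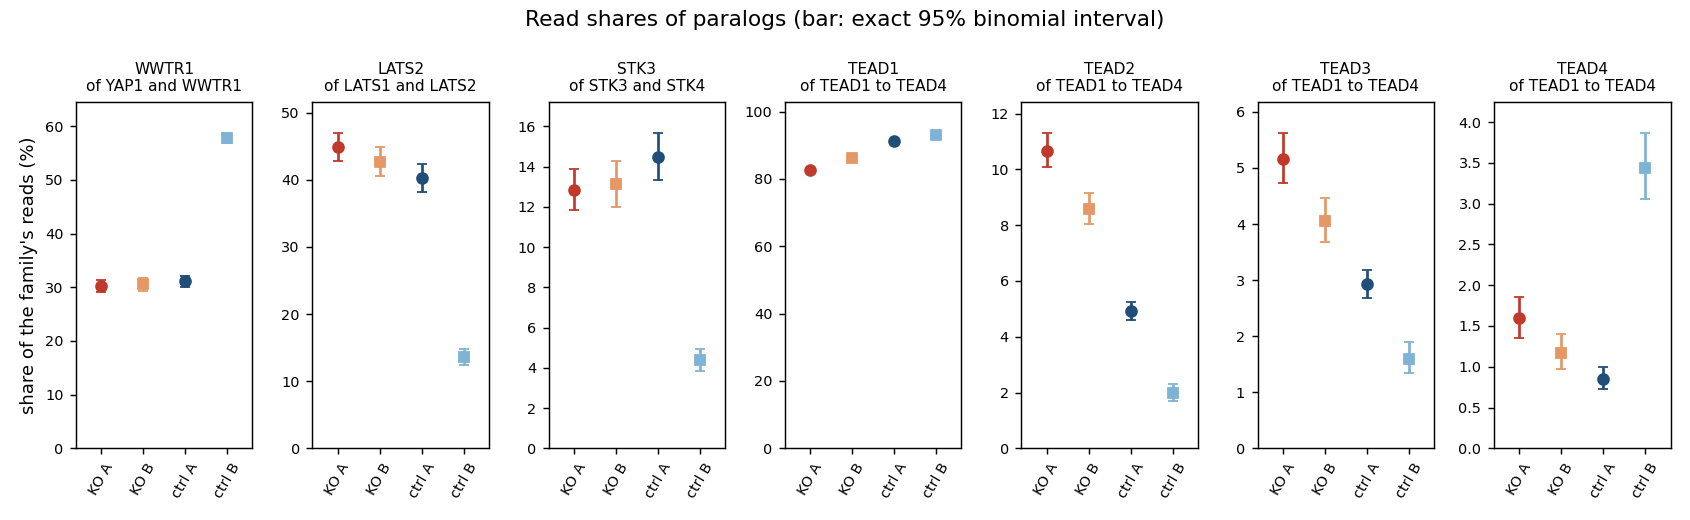
Share of each paralog in the reads of its pair or family (vertical axes, percent, each from 0) in the CFL1 knockout and control libraries, with exact 95% binomial intervals as bars. For WWTR1, LATS2, STK3 and TEAD4 the share in control B lay farthest from the other 3 libraries, while TEAD1 lay lower, at 82.6% and 86.2%, and TEAD2 and TEAD3 lay higher in both knockouts.

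Across the 10 genes, the knockouts agreed closely with each other and the controls did not. The log2 difference between the knockouts had a median size of 0.10 and reached 0.34 for TEAD1, whereas that between the controls had a median size of 1.08 and ran from 0.19 for YAP1 to 2.12 for TEAD2. Over 16458 tested genes the median sizes were 0.15 between the knockouts and 0.87 between the controls. The knockout mean was nearer to control A than to control B for 9 of the 10 genes, and for 82.9% of all those genes. Its distance from control A had a median size of 0.17 for the 10 genes and 0.24 for all, and its distance from control B 1.08 and 0.89. The median log2 fold change of the 10 genes in the authors' deposited table was -0.37, and that of all tested genes -0.03, with 6 of the 10 below 0.

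**Figure D3:**
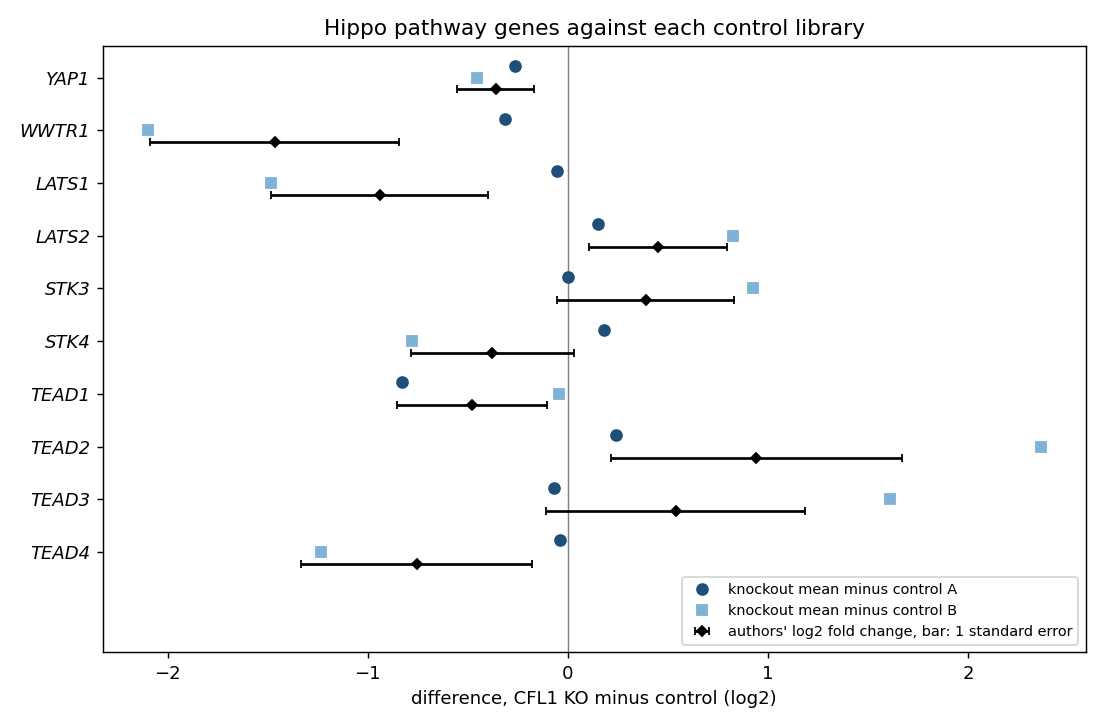
Log2 difference (horizontal axis) of the mean of the CFL1 knockouts from control A (circles) and from control B (squares) for each Hippo gene, with the authors' log2 fold change and its standard error (diamonds and bars). Only TEAD1 lay farther from control A (-0.83) than from control B (-0.04), and YAP1 was about as far from both (-0.26 and -0.45).

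When limma was run on the recovered reads of all 4 libraries, 0 of the 10 genes were called, as were 0 of 24822 tested genes (0%), of which 495 had an unadjusted p under 0.05 (430 with voom, which also called 0). None of the 10 had an unadjusted p under 0.05 in that fit. Without control A, limma called 8 of the 10, where 33.5% of all genes were called. TEAD2, TEAD3, LATS2 and STK3 were then higher in the knockouts, and WWTR1, TEAD4, LATS1 and STK4 lower, with adjusted p from 0.0260 to 0.0432, whereas YAP1 and TEAD1 were not called, at 0.0951 and 0.890. Without control B, limma called 0 of the 10 and 0 of all genes (0%), so its lack of calls says nothing about a single gene. TEAD2 was the only one of the 10 with an unadjusted p under 0.05 in that limma fit, beside 12.9% of all genes. These fits leave a group with 1 library, which is assumed to vary like the other group. Scaled to total reads, limma gave STK4 a log2 fold change of -0.16 and TEAD1 one of -0.30, against -0.30 and -0.44 with the authors' size factors, and 0 calls.

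Levels of different genes were compared per kilobase of the longest protein-coding transcript in GENCODE v29, whose isoforms need not be the ones expressed. On this scale the knockouts ranked TEAD1 first at 975 normalized counts per kilobase, followed by YAP1 at 721, STK4 at 510, TEAD2 at 381, WWTR1 at 338, LATS2 at 167, LATS1 at 157, STK3 at 155, TEAD3 at 149 and TEAD4 at 78.7. Of neighbours in this order, LATS1 and STK3 overlapped over the knockout libraries, and so did STK3 and TEAD3. The controls ranked TEAD1 first at 1359, followed by WWTR1 at 933, YAP1 at 925, STK4 at 663, LATS1 at 302, TEAD2 at 198, TEAD4 at 133, LATS2 at 122, STK3 at 118 and TEAD3 at 103. All neighbours in the control order overlapped over the 2 control libraries, except STK4 and LATS1. By the median transcript length WWTR1 took rank 2 in the knockouts, since many of its annotated transcripts are short.

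**Figure D4:**
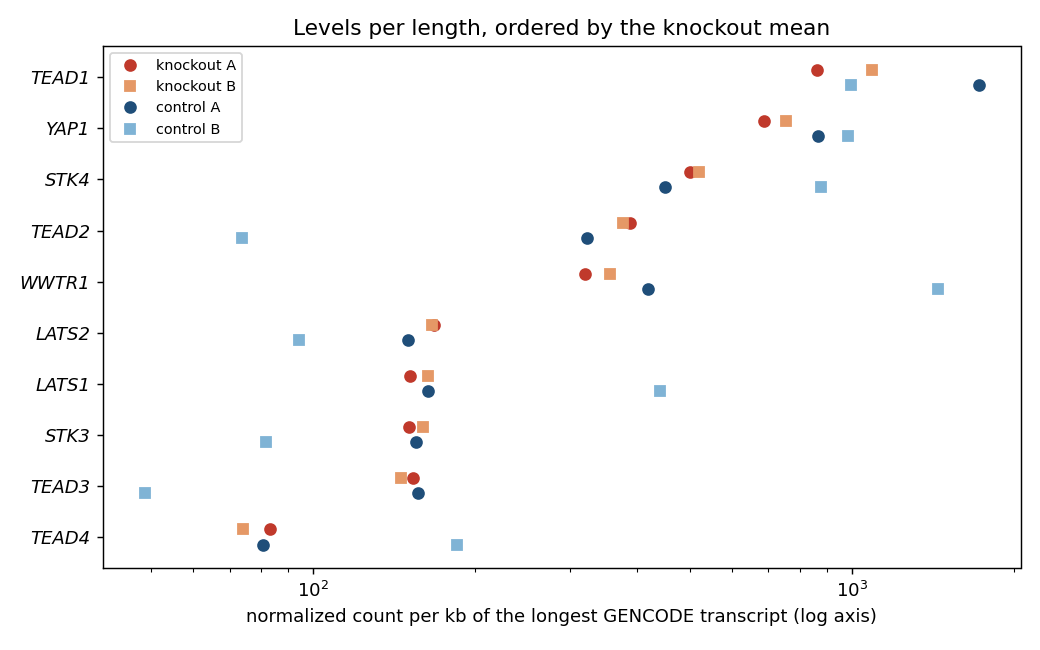
Normalized count per kilobase of the longest GENCODE transcript (horizontal log axis) for the 10 Hippo genes in each library, ordered from top to bottom by the knockout mean. TEAD1 and YAP1 lead in the knockouts, at means of 975 and 721, and control B lies off the other 3 libraries for most genes, highest above them for WWTR1.

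Of 62 further genes that act on the Hippo core, 57 were tested. Among the 57, 1 was called lower, TNIK, and 0 were called higher, where 0.559% of all tested genes were called. The 5 genes not tested, VGLL1, VGLL2, AMOT, MAP4K1 and CRB3, had too few reads for an adjusted p. The list was assembled from 22 scaffolds and activating kinases, 15 inhibitors of the Hippo kinases, 15 partners of YAP, TAZ and TEAD, and 10 polarity and adhesion genes. TNIK, of the MAP4K family of kinases, which activate LATS, had 331 normalized counts in control B and no read in any other library, so its call rests on control B alone. For TNIK the authors' deposited table gives a DESeq2 adjusted p of 0.000459. Of the 57 genes, 41 (71.9%) had a log2 fold change below 0 in the authors' deposited table, against 51.5% of all tested genes, and the medians were -0.42 and -0.03. The median of the 57 was -0.06 relative to control A and -0.62 relative to control B. Both knockouts lay below both controls for 23 of the 57 (40.4%) and above them for 9 (15.8%), beside the 21.1% and 23.9% of all genes given above. The list was chosen with results of these libraries known, and it was given no test of its own.

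Among scaffolds and activating kinases, the median log2 fold change of 21 tested genes in the authors' deposited table was -0.28, and over the same genes the median was -0.06 relative to control A and -0.34 relative to control B. NF2, which encodes merlin, the scaffold that brings LATS to the membrane, had 1536 and 1533 normalized counts in the knockouts, against 1533 in control A and 8156 in control B. Control A and the knockouts were equal within 0.01 on the log2 scale for NF2, which the authors' deposited table lists at -1.66 (log2 fold change), with an adjusted p of 0.342 from DESeq2. NF2 was chosen after its values were seen. MAP4K5, a kinase of the family that phosphorylates LATS, had 292 and 270 normalized counts in the knockouts, against 394 and 1109 in the controls. TAOK2, a kinase that activates the MST kinases, had 1078 and 972 in the knockouts, against 1145 and 3546 in the controls. RASSF5, an MST-binding adaptor, was higher, with 212 and 219 in the knockouts, against 148 and 62.6 in the controls. WWC3, of the KIBRA family of scaffolds, had 1430 and 1435 in the knockouts, against 1416 and 313 in the controls. None of these passed the test, their adjusted p from DESeq2 in the authors' deposited table lying between 0.274 (MAP4K5) and 0.666 (WWC3).

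The 15 inhibitors of the Hippo kinases, most of them parts of the STRIPAK phosphatase complex that dephosphorylates the MST kinases, had 13 members with a log2 fold change below 0 in the authors' deposited table and 0 calls. Among all tested genes 51.5% lay below 0 and 0.559% were called. The median of the inhibitors was -0.50 with all libraries, -0.10 against control A and -0.76 against control B. Both knockouts lay below both controls for 8 of the 15 and above them for 1, where the shares of all genes were 21.1% and 23.9%. LIMD1, a LIM protein that sequesters LATS, had 2017 and 2199 normalized counts in the knockouts, against 2379 and 5539 in the controls. STRIP2, a STRIPAK subunit, had 272 and 332 in the knockouts, against 404 and 568 in the controls. PPP2R1A, the scaffold subunit of protein phosphatase 2A, had 4960 and 4630 in the knockouts, against 4307 and 2751 in the controls. In the authors' deposited table the adjusted p from DESeq2 were 0.415 for LIMD1, 0.390 for STRIP2 and 0.556 for PPP2R1A.

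Of 12 tested partners of YAP, TAZ and TEAD, 10 had a log2 fold change below 0 in the authors' deposited table, where 51.5% of all tested genes did. Their median was -0.16 relative to control A and -0.69 relative to control B. Both knockouts lay below both controls for 6 and above them for 0, where the shares of all genes were 21.1% and 23.9%. Of the partners 0 were called, where 0.559% of all tested genes were. PTPN14, a phosphatase that retains YAP in the cytoplasm, had 4583 and 5288 normalized counts in the knockouts, against 5941 and 17885 in the controls. VGLL3, a cofactor that binds TEADs, had 128 and 145 in the knockouts, against 215 and 241 in the controls. For VGLL3 the controls were close together, and the knockout mean lay 0.66 and 0.82 below them on the log2 scale (-0.66 and -0.82). VGLL3 had a log2 fold change of -0.74 in the authors' deposited table, with an SE of 0.323 and, by the DESeq2 Wald test, an adjusted p of 0.309, and PTPN14 one of -1.27 at an adjusted p of 0.331. VGLL1 and VGLL2 were at 0 in all libraries.

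The polarity and adhesion genes had a median log2 fold change of 0.11 over 9 tested members in the authors' deposited table. Their medians were 0.26 and 0.18 relative to controls A and B. Of these genes 0 were called, where 0.559% of all tested genes were. PATJ, a polarity scaffold, had 1276 and 1212 normalized counts in the knockouts, against 954 and 860 in the controls. PARD3, a further such scaffold, had 1273 and 1299 in the knockouts, against 1022 and 858 in the controls. Both were higher in both knockouts, whereas DLG1, another polarity scaffold, was lower, with 1411 and 1543 in the knockouts, against 1844 and 1839 in the controls. Their log2 fold changes in the authors' deposited table were 0.46, 0.45 and -0.32, and the DESeq2 adjusted p 0.309, 0.368 and 0.448.

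Of 21 listed targets of YAP and TAZ, all were tested and 0 were called, where 0.559% of all tested genes were. The table's mark for downregulated genes stands on 10 of the 21 and on 9.49% of all tested genes. By the authors' deposited table, 15 of the 21 had a log2 fold change below 0, with a median of -0.81, where 51.5% of all tested genes lay below 0. Over the 19 targets with recovered reads the median was -0.04 relative to control A and -1.31 relative to control B. Both knockouts lay below both controls for 7 of the 19 (36.8%) and above them for 3 (15.8%), where the shares of all genes were 21.1% and 23.9%. The targets were listed with results of these libraries known, and this count is no test of them. AMOTL2 and PTPN14 are in this list and among the partners.

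CTGF, the most widely used readout of YAP and TAZ, had 3276 and 3473 normalized counts in the knockouts, against 2473 in control A and 5299 in control B. The knockouts lay between the controls, and the authors' deposited table lists CTGF at -0.20 (log2 fold change), with an SE of 0.445 and, by the DESeq2 Wald test, an adjusted p of 0.844. CYR61, of the same family of matricellular proteins, had 1970 and 2097 in the knockouts, against 1989 in control A and 9681 in control B. Control A lay between the knockouts for CYR61, which the authors' deposited table lists at -1.52 (log2 fold change), with an adjusted p of 0.367 from DESeq2. ANKRD1, an ankyrin-repeat protein gene, had 14.2 and 4.31 in the knockouts, against 23.6 in control A and 648 in control B. Both knockouts were below both controls for ANKRD1, with a log2 fold change of -5.18 in the authors' deposited table, an SE of 1.43 and an adjusted p of 0.0511 by DESeq2. It rests on few reads outside control B.

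**Figure D5:**
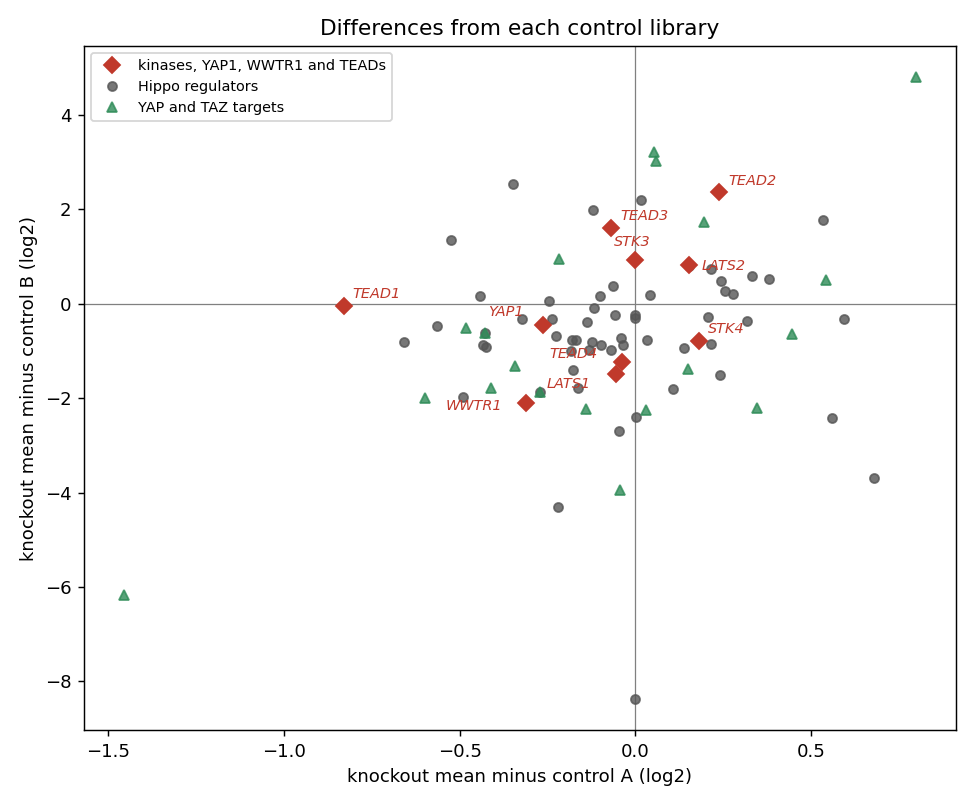
Log2 difference of the mean of the CFL1 knockouts from control A (horizontal axis) and from control B (vertical axis, with a wider range) for the 10 Hippo genes (diamonds), the tested Hippo regulators (circles) and the tested YAP and TAZ targets with recovered reads (triangles). All points but that of the target ANKRD1 lie within 1 of 0 on the horizontal axis, while the vertical axis runs from the regulator TNIK, read in control B alone, at the bottom to the target IGFBP3 at the top, with 4.80.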

How the data were processed

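RNA of PANC-1 cells was sequenced on an Illumina instrument, per the labels' protocols, which require an RNA integrity number of at least 7. Per the submitters' processing notes, which give no versions or order, the tools were FastQC, cutadapt, STAR and RSEM and the build hg19, and whether counting used strand is not given in the sources used here. The authors deposited 1 file, their DESeq2 results. The base mean in it is a signal: the mean of counts divided by size factors over 4 libraries, as the authors deposited it. Fold changes and standard errors are unshrunken log2 values, as deposited. The Wald score is their quotient in the deposited table. Both p-value columns, unadjusted and Benjamini-Hochberg adjusted, are as deposited.

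Base means carry 15 digits, and each is a sum of whole reads times 1 step per library. The steps are the base means seen where a single read fell in a single library. Whole reads were enumerated for base means under 10000 and accepted, where several solutions fit, only if the fold change they imply was within 0.0001 (log2) of the deposited value. This gave reads for 30660 of 30662 genes (99.99%). The 10 Hippo genes had 1 solution each, except STK4 with 7, YAP1 with 20 and TEAD1 with 333, of which the fold change selected 1. RSEM estimates counts, so these reads are its rounded estimates, and paralogs may share some. The scripts were tested on simulated data.

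Calls are a DESeq2 adjusted p under 0.05 in the authors' deposited table. Limma 3.58.1 (R 4.3.3) used a trended prior on log2(normalized count + 1) of genes with means of 1 or more, a scale on which low genes change too little. Alternatives were an adjusted p under 0.01, no independent filtering, limits of 10 and 100 on the base mean, and for limma a pseudocount of 0.1, means of 10 or more, voom, other scalings and leaving out each library. The 10 genes and all lists were chosen with earlier results of these data known. Named regulators are every called gene and, per list, up to 2 rises and 2 falls by size with a base mean of at least 100 and both controls on 1 side of both knockouts. Named targets are CTGF, CYR61 and ANKRD1. Older symbols were matched through RefSeq synonyms. Computations used Python 3.11.15, numpy 2.4.6, pandas 2.3.3, scipy 1.17.1 and numba 0.67.0, and figures matplotlib 3.10.9.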

Additional observations from a re-analysis of the deposited data

How the results depend on the processing

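No paired analysis was possible because the libraries recovered from the table carry no label numbers. With all 4 libraries, limma, voom, both other scalings, a pseudocount of 0.1 and means of 10 or more each called 0 of all genes. Of the fits with 1 library left out, only that without control A called any gene. Where a setting called no gene at all, its 0 below says nothing about a single gene. The authors' table called 0 of the 10 Hippo genes, and so did every alternative except leaving out control A: leaving out 1 library gave from 0 to 8 called. For the regulators the 1 call, TNIK, became 0 with base means of at least 100, limma, voom, both other scalings, a pseudocount of 0.1 and means of 10 or more, and leaving out 1 library gave from 0 to 28 (28 of 60 tested without control A). For the targets the 0 calls became 1 with base means of at least 100 (ANKRD1, adjusted p 0.0459), and from 0 to 15 with 1 library left out (15 of 19 tested without control A, a fit that called 33.5% of all genes). Leaving out 1 library put the log2 fold change between -0.068 and 1.61 for TEAD3, -0.78 and 0.18 for STK4, -8.37 and 0 for TNIK, -0.65 and 0.45 for CTGF, and -2.25 and 0.031 for CYR61, the end of opposite sign (0 for TNIK) being that without control B. Scaling to total reads moved the median of all genes by 0.13 and gave CTGF 0.038. Leaving out 1 library put the share difference between -27.4 and -0.72 points for WWTR1, 3.53 and 30.2 for LATS2, -1.50 and 8.61 for STK3, -9.57 and -5.94 for TEAD1, 4.69 and 7.64 for TEAD2, 1.69 and 3.01 for TEAD3, and -2.06 and 0.53 for TEAD4. Depth set little limit on the 10 genes, whose lowest recovered count was 116 reads.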

Other observations

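Antisense genes and a processed copy of the Hippo genes were read at low levels, and whether counting used strand is not given in the sources used here. WWTR1-AS1 had 11 and 8 reads in the knockouts, against 12 and 45 in the controls, where WWTR1 had 1818 and 1660 in the knockouts and 2319 and 6511 in the controls. STK4-AS1 had 11 and 15 reads in the knockouts and 6 and 7 in the controls. LATS2-AS1 had 12 and 0 reads in the knockouts and 12 and 6 in the controls. The pseudogene YAP1P1 had 1 and 0 reads in the knockouts and 3 and 2 in the controls.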
